A study of Homo sapiens with 6 samples.

Results

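Kinesins are motor proteins that use ATP to walk along microtubules or to take them apart at their ends. Mitotic kinesins build the spindle, align and separate the chromosomes and finish cytokinesis, and the RNA of most of them is known to peak in G2 and M phase of the cell cycle. Cargo transport kinesins carry vesicles, mitochondria, endosomes and other loads, and are used in dividing and resting cells alike. The genes described here are all 39 of the 58735 genes in the deposited table whose symbol is KIF followed by a number, with or without a letter from A to C and a further digit. Antisense RNAs and pseudogenes were left out. By known role, 13 of the 39 were mitotic, 13 were cargo transport kinesins, and 13 acted at microtubule ends, in cilia or in signalling or are little known.

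The study asked how loss of METTL16, a methyltransferase that places m6A marks on RNA, acts on pancreatic cancer cells. RNA was sequenced from PANC-1, a line derived from a human pancreatic ductal carcinoma, in 3 samples that received a control siRNA (si-NC) and 3 that received siRNA against METTL16 (si-METTL16). The methods describe the cells as stably transfected and the samples as biological triplicates, and 1 label of the controls calls them WT. Both groups came from the same single line, and no second siRNA was analysed here.

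Total counts per sample ran from 15725298 to 18054436, so that 3 counts stood for 0.166 to 0.191 CPM, the unit scaled to a common total. METTL16 itself had 1546, 1641 and 1764 counts in si-NC samples and 571, 528 and 627 in si-METTL16 samples, a log2 fold change of -1.48 (edgeR adjusted p = 8.3e-05). Of 15089 genes that passed the filter on low counts, edgeR's quasi-likelihood test, with p-values adjusted by Benjamini-Hochberg over all of them, called 18.4% higher and 17.5% lower in si-METTL16 samples, 35.9% in either direction, with a median log2 fold change of -0.0045. Groups did not overlap in scaled counts for 50.9% of these genes. The epithelial keratins KRT8 and KRT18 were present at mean levels of 151 and 175 FPKM (counts scaled by gene length and sample total) in si-NC samples, while the means of KRT7, EPCAM and MUC1 were 0.949, 1.82 and 0.652 FPKM there. Summed over 7 epithelial markers the level was 352 to 453 FPKM in si-NC and 361 to 401 FPKM in si-METTL16 samples, with KRT7, KRT19 and SOX9 called lower. The acinar, islet and endothelial lists each summed to under 0.5 FPKM in every sample. The fibroblast list summed to 25.1 to 29.0 FPKM in si-NC and 60.9 to 64.5 FPKM in si-METTL16 samples, nearly all of it COL1A1, while COL1A2 had at most 1 count in any sample. The immune list summed to 1.19 to 1.21 FPKM in si-NC and 1.63 to 1.99 FPKM in si-METTL16 samples, nearly all of it CD68, with CD3E at 0 throughout. Mitochondrial genes took 5.36 to 5.59% of the counts of si-NC samples and 4.91 to 5.25% of those of si-METTL16 samples. The part of these marker and mitochondrial differences in the results was not tested.

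Promoters of the kinesins are shown first, because most mitotic members shared short sequences in them that the sorting by role did not use. The CHR (cell cycle genes homology region) is a short element known from promoters of genes expressed in G2 and M phase, often a short distance downstream of CCAAT boxes. RefSeq promoters on GRCh38.p14, which run from 250 bases before a start to 50 bases after it, were found for 33 of the 39 kinesins. KIF13B, KIF19, KIF21B, KIF26B, KIF27 and KIF5A had no entry. Each line gives 30 bases around the letters TTTGAA or TTCGAA in the gene's own sense, with those letters, or TTCAAA where they lie on the other strand, in capitals. The 10 mitotic kinesins with a match are given by 6 examples, followed by the only match among cargo transport kinesins (KIF5B) and the only one among the other kinesins (KIF24).
KIF11 (chr10:92593090-92593119, plus strand): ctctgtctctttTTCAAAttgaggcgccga
KIF15 (chr3:44761747-44761776, plus strand): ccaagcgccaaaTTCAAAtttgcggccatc
KIF20B (chr10:89701602-89701631, plus strand): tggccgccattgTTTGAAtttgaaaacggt
KIF23 (chr15:69414282-69414311, plus strand): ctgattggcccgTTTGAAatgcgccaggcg
KIF4A (chrX:70290058-70290087, plus strand): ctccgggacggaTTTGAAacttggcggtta
KIF4B (chr5:155013746-155013775, plus strand): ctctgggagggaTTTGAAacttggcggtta
KIF5B (chr10:32056548-32056577, minus strand): agtgcagtaaaaTTTGAAtctgcgaccccg
KIF24 (chr9:34329250-34329279, minus strand): acagcgcgggcgTTCGAActggcgcttggc

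Counted from the RefSeq start as base 1, the capitals began at -28 in KIF11, -35 in KIF15, -55 in KIF23, -34 in KIF4A and 4 in KIF4B. In KIF20B they began at 25 and were followed directly by a further TTTGAA. The KIF5B match lay farther upstream, at -140, and that of KIF24 at 2. The deposited row of KIF24, a minus-strand gene, ends at 34311371 and so does not reach this promoter. In the GENCODE v44 annotation the gene ends at 34329268. In KIF23 the CCAAT letters in reverse, attgg, stood just upstream within the printed window, and in KIF15 the E2F letters TTTGGCGC, which read GCGCCAAA in reverse, ended at the base before the CHR letters.

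Matches to TTTGAA or TTCGAA on either strand were present in 10 of 13 mitotic promoters (76.9%), in 1 of 11 cargo transport promoters (9.09%) and in 1 of 9 of the others (11.1%). The same letters occurred in 16.4% of all 35116 promoters of that length and in 10.5% of the 10373 promoters of genes that passed the count filter. The CCAAT letters were in 10 of 13 mitotic promoters (76.9%), in 3 of 11 (27.3%) and in 3 of 9 (33.3%), beside 36.6% for genes that passed the filter. Both CHR and CCAAT letters were found in 9 of the 13 mitotic promoters (69.2%), beside 4.54% of the promoters of genes tested. Each of these mitotic counts includes KIF4A and KIF4B. KIF4B is a near copy of KIF4A and their printed windows are alike, so their matches are not independent. E2F letters, searched as TTTGGCGC, TTTCCCGC and TTTGGCGG, were present in KIF11 and KIF15 among mitotic kinesins, in KIF16B among cargo carriers and in KIF25, beside 4.76%. The mitotic kinesins KIF20A, KIF2B and KIF2C did not have the CHR letters in this window, and KIF2B and KIF2C had no CCAAT or E2F letters either. Over all genes tested with a promoter, 29.9% of the 1092 with CHR letters were called higher in si-METTL16 samples, against 18.6% of those without. The same shares were 32.0% with and 19.2% without E2F letters, and 21.7% with and 18.8% without CCAAT letters. A match is a description of letters and not of a bound site.

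**Figure D1:**
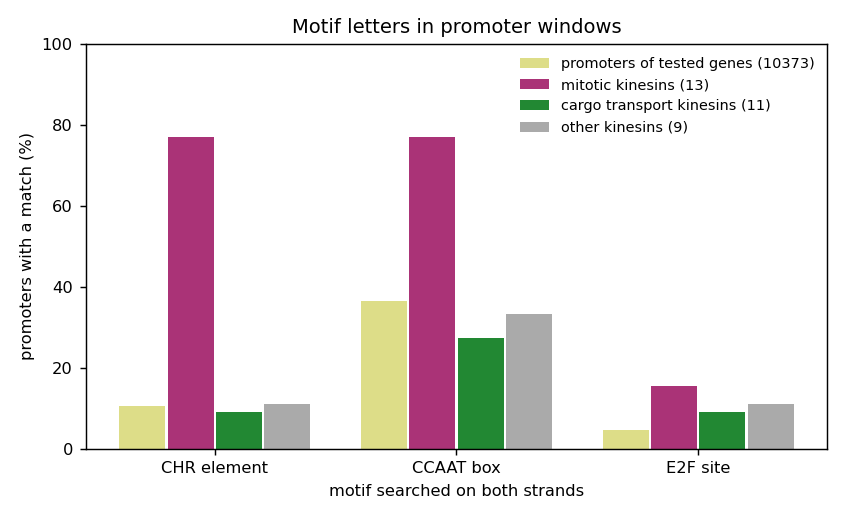
Share of RefSeq promoters (y axis, %) that hold CHR, CCAAT or E2F letters (x axis) on either strand, for 10373 genes tested, 13 mitotic, 11 cargo transport and 9 other kinesins. For CHR letters the mitotic bar stands at 76.9% and the other 3 bars lie between 9.09 and 11.1%.

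Of the 13 mitotic kinesins 12 passed the count filter, each with at least 16 counts in every sample, and these 12 rose in si-METTL16 samples, beside a background of 18.4% of genes called higher. Their log2 fold changes had a median of 1.25 and ran from 0.64 for KIF18B to 1.75 for KIF2C. For each of the 12 the si-NC and si-METTL16 samples did not overlap, beside 50.9% of all genes. KIF2A, which has a role at spindle poles and was not called, was placed with the other kinesins, and the count of 12 depends on that placement. The remaining mitotic member, KIF2B, had 1 count over the 6 samples and was not tested. Because RNA was taken from whole cultures, more cells in mitosis and more RNA of these genes per cell cannot be told apart.

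**Figure D2:**
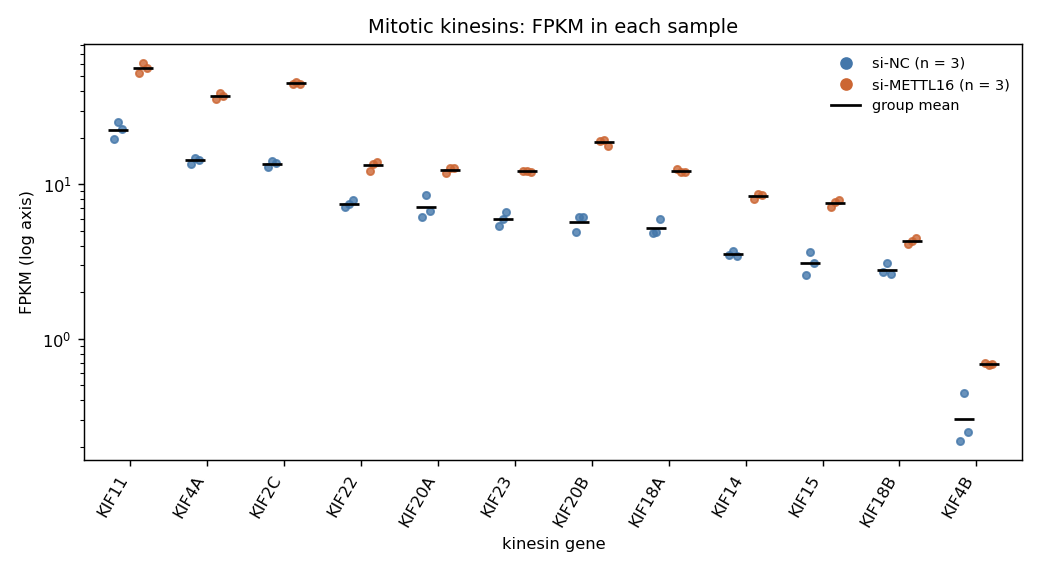
Level of each of the 12 mitotic kinesins tested (FPKM, log axis) in 3 si-NC and 3 si-METTL16 samples, genes ordered by their mean in si-NC samples; black lines are group means. In every gene the si-METTL16 points lie above the si-NC points, and KIF11, KIF2C and KIF4A reach 56.8, 45.0 and 37.2 FPKM on average.

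Spindle assembly depends on KIF11, also called Eg5, the kinesin-5 that slides antiparallel microtubules apart and so separates the poles. KIF11 (chromosome 10, 92593286 to 92655395 in the table, on GRCh38) was the highest of the mitotic kinesins at 19.8, 25.2 and 22.9 FPKM in si-NC samples and 52.6, 61.1 and 56.6 FPKM in si-METTL16 samples. The lowest si-METTL16 sample was above the highest si-NC sample by more than the whole si-NC range. On the log2 scale KIF11 rose by 1.35 (SE 0.10, edgeR adjusted p = 0.000185). KIF15, the kinesin-12 that can hold the poles apart alongside KIF11, was measured at 2.57, 3.65 and 3.08 FPKM in si-NC and at 7.18, 7.64 and 7.88 FPKM in si-METTL16 samples. Its log2 fold change was 1.31 (SE 0.13, edgeR adjusted p = 0.000494), and si-NC replicate 2 was the highest control for KIF11 and KIF15 alike.

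Microtubule ends and chromosome alignment are the task of kinesin-13 and kinesin-8. KIF2C, or MCAK, removes tubulin from the ends at kinetochores and corrects wrong attachments. KIF2C (chromosome 1, 44739818 to 44767767) had 12.9, 14.2 and 13.7 FPKM in si-NC samples and 44.5, 45.7 and 44.7 FPKM in si-METTL16 samples. It showed the largest log2 fold change of the 34 kinesins tested, 1.75 (SE 0.06, edgeR adjusted p = 6.9e-05), a 3.36-fold higher level, with both groups narrow. KIF20B ranked above it without si-NC replicate 2 (1.78), without si-NC replicate 3 (1.78) or without si-METTL16 replicate 3 (1.77). KIF18A, which damps the movements of aligned chromosomes, had 4.87, 4.92 and 5.97 FPKM in si-NC and 12.6, 11.96 and 11.98 FPKM in si-METTL16 samples. It rose by 1.23 on the log2 scale (SE 0.10, edgeR adjusted p = 0.000231). KIF18B, which acts on astral microtubules, was at 2.69, 3.09 and 2.64 FPKM in si-NC and 4.14, 4.33 and 4.48 FPKM in si-METTL16 samples, a log2 fold change of 0.64 (SE 0.10, edgeR adjusted p = 0.00274). The difference in fold change between KIF18A and KIF18B was not tested.

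Chromokinesins bind chromosome arms and push them towards the spindle equator. KIF22, or Kid, had 7.12, 7.44 and 7.93 FPKM in si-NC and 12.3, 13.5 and 14.02 FPKM in si-METTL16 samples, a log2 fold change of 0.84 (SE 0.08, edgeR adjusted p = 0.000344). KIF4A (chromosome X, 70290090 to 70420832), which also limits the growth of midzone microtubules, had 13.5, 14.9 and 14.5 FPKM in si-NC and 35.5, 38.8 and 37.3 FPKM in si-METTL16 samples. It rose by 1.40 on the log2 scale (SE 0.07, edgeR adjusted p = 8.3e-05), with no overlap between groups. KIF4B, a near copy of KIF4A on chromosome 5, was lower than KIF4A per length, at means of 0.304 and 0.689 FPKM, with 16, 33 and 19 counts in si-NC and 51, 47 and 54 counts in si-METTL16 samples. The KIF4B log2 fold change was 1.20 (SE 0.30, edgeR adjusted p = 0.0199), and leaving out any 1 sample but si-NC replicate 2 took its adjusted p above 0.05 (from 0.0520 to 0.0705). KIF4B transcripts matched KIF4A in 4146 of 4394 aligned positions (94.36%), and KIF4B counts were 1.54 to 2.87% of KIF4A counts in si-NC and 1.68 to 1.89% in si-METTL16 samples. Reads of KIF4A counted for KIF4B cannot be told apart from its own, so the KIF4B value is uncertain.

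Midzone and cytokinesis kinesins include the 3 members of kinesin-6, all of which rose. KIF23, or MKLP1, forms the centralspindlin complex with RACGAP1 and bundles midzone microtubules. KIF23 had 5.41, 5.94 and 6.60 FPKM in si-NC and 12.3, 12.1 and 12.1 FPKM in si-METTL16 samples, a log2 fold change of 1.05 (SE 0.08, edgeR adjusted p = 0.000205). KIF20A, or MKLP2, brings the chromosomal passenger complex to the midzone, and was at 6.20, 8.52 and 6.74 FPKM in si-NC and 11.8, 12.8 and 12.8 FPKM in si-METTL16 samples. It rose by 0.82 on the log2 scale (SE 0.12, edgeR adjusted p = 0.00243), with si-NC replicate 2 the highest control. KIF20B (chromosome 10, 89701610 to 89774939), which acts late in abscission, went from 4.91, 6.16 and 6.11 FPKM to 18.96, 19.4 and 17.8 FPKM. With a log2 fold change of 1.73 (SE 0.10, edgeR adjusted p = 0.000113) KIF20B stood next to KIF2C in the order of fold changes. KIF14, a kinesin-3 that works with citron kinase in the cleavage furrow, had 3.48, 3.71 and 3.43 FPKM in si-NC and 7.999, 8.63 and 8.52 FPKM in si-METTL16 samples. It rose by 1.27 (SE 0.07, edgeR adjusted p = 9.7e-05), while the cargo-carrying kinesin-3 genes lay between -0.63 and 0.42 on the same log2 scale.

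Cargo transport kinesins showed no common direction. Of 13 tested, 3 were called higher (23.1%) and 2 lower (15.4%), near the background of 18.4% and 17.5%, and 8 were not called. Their median log2 fold change was -0.03, with a range from -0.80 for KIF3A to 0.42 for KIF1C, and si-NC and si-METTL16 samples did not overlap for 9 of the 13, beside 50.9% of all genes. The 2 that fell were KIF3A and KIF1A, and the 3 that rose were KIF1C, KIF3C and KIF16B.

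**Figure D3:**
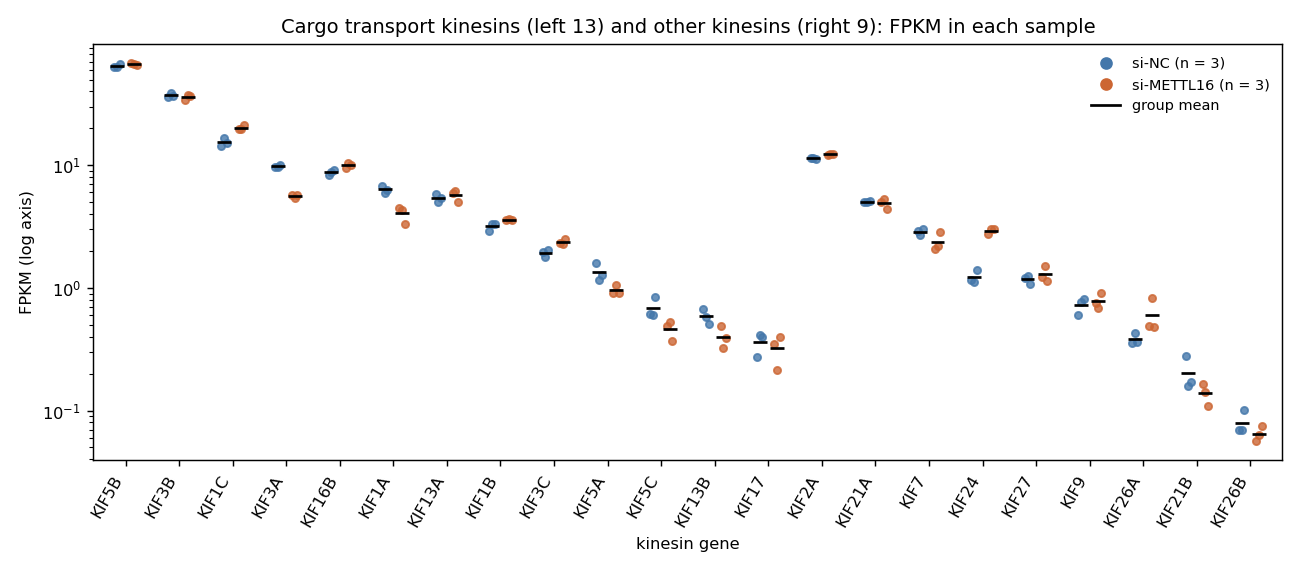
Level (FPKM, log axis) of 13 cargo transport kinesins (left) and the 9 other kinesins tested (right) in 3 si-NC and 3 si-METTL16 samples; black lines are group means. KIF5B has means of 64.9 and 67.1 FPKM, KIF3A falls from 9.88 to 5.60 FPKM on average, and among the right-hand genes KIF24 rises from 1.22 to 2.93 FPKM.

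Kinesin-1 is the main carrier of mitochondria, vesicles and RNA granules, and none of its 3 heavy chains was called. KIF5B, the chain found in all tissues, had the highest level of all 39 kinesins in both groups, at 63.7, 63.65 and 67.5 FPKM in si-NC and 68.3, 67.3 and 65.8 FPKM in si-METTL16 samples. The groups overlapped, and its log2 fold change of 0.07 (SE 0.05, edgeR adjusted p = 0.317) was within the spread of the samples. KIF5A and KIF5C are mainly neuronal chains and were low in these cells. KIF5A had 1.59, 1.17 and 1.27 FPKM in si-NC and 0.906, 1.05 and 0.905 FPKM in si-METTL16 samples, with a log2 fold change of -0.47 (SE 0.16, edgeR adjusted p = 0.0557). Without si-NC replicate 2 the adjusted p of KIF5A was 0.0498. KIF5C had 0.612, 0.598 and 0.847 FPKM in si-NC and 0.493, 0.522 and 0.367 FPKM in si-METTL16 samples, a log2 fold change of -0.55 (SE 0.21, edgeR adjusted p = 0.0821). In both genes every si-NC sample was above every si-METTL16 sample, and groups did not overlap, in either direction, for 50.9% of all genes.

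Kinesin-2 works as a dimer of KIF3A with KIF3B or KIF3C, held by the adaptor KIFAP3, and drives transport into cilia and of endosomal cargo. KIF3A (chromosome 5, 132692628 to 132737638) had 9.76, 9.75 and 10.1 FPKM in si-NC and 5.68, 5.38 and 5.73 FPKM in si-METTL16 samples. It fell by 0.80 on the log2 scale (SE 0.06, edgeR adjusted p = 0.000214), to 57.5% of the control level. Its partner KIF3B, at 36.1, 38.9 and 36.8 FPKM in si-NC and 34.1, 37.5 and 36.5 FPKM in si-METTL16 samples, had overlapping groups and a log2 fold change of -0.03 (SE 0.06, edgeR adjusted p = 0.748). The ratio of KIF3A to KIF3B in FPKM was thus 0.251 to 0.275 in si-NC and 0.143 to 0.167 in si-METTL16 samples. KIFAP3, which holds both chains, was measured at 7.61, 8.32 and 8.37 FPKM in si-NC and 4.41, 4.75 and 4.65 FPKM in si-METTL16 samples. It fell by 0.79 (SE 0.08, edgeR adjusted p = 0.000487). The other chain, KIF3C, went from 1.95, 1.77 and 2.04 FPKM to 2.31, 2.28 and 2.51 FPKM, and rose by 0.32 (SE 0.09, edgeR adjusted p = 0.0299). That call was lost on leaving out any 1 sample but si-NC replicate 3, with an adjusted p of up to 0.0875. KIF17, a homodimeric kinesin-2 of cilia and dendrites, had 30, 45 and 45 counts in si-NC and 38, 22 and 47 counts in si-METTL16 samples, with overlapping groups and a log2 fold change of -0.14 (SE 0.30, edgeR adjusted p = 0.753).

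Kinesin-3 members carry synaptic vesicle precursors, endosomes and secretory vesicles. KIF1A (chromosome 2, 240713761 to 240821036), best known from axons, had 6.81, 5.96 and 6.29 FPKM in si-NC and 4.49, 4.34 and 3.34 FPKM in si-METTL16 samples. It fell by 0.63 on the log2 scale (SE 0.12, edgeR adjusted p = 0.00662), to 64.8% of control. A list of 5 neuronal markers summed to 12.1 to 14.6 FPKM in si-NC and 13.1 to 14.2 FPKM in si-METTL16 samples, with 4 of 5 genes tested, 2 of them higher (SYP and SNAP25) and none lower, and RBFOX3 had 1 count in all. The part of these markers in the KIF1A result was not tested. KIF1C (chromosome 17, 4997948 to 5028401), which moves dense core vesicles and integrins, rose from 14.5, 16.6 and 15.1 FPKM to 19.8, 19.7 and 21.4 FPKM. Its log2 fold change was 0.42 (SE 0.07, edgeR adjusted p = 0.00378). KIF16B, a carrier of early endosomes, had 8.37, 8.75 and 9.12 FPKM in si-NC and 9.45, 10.5 and 10.1 FPKM in si-METTL16 samples. Its difference of 0.22 (SE 0.07, edgeR adjusted p = 0.0432) was lost on leaving out any 1 of the 6 samples, with adjusted p from 0.0513 to 0.127. KIF1B, with isoforms for mitochondria and for synaptic vesicles, had 2.93, 3.31 and 3.32 FPKM in si-NC and 3.56, 3.65 and 3.57 FPKM in si-METTL16 samples and was not called (log2 fold change 0.19, edgeR adjusted p = 0.0640). KIF13A, which carries recycling endosomes, overlapped between groups at 5.79, 5.04 and 5.43 FPKM in si-NC and 5.92, 6.19 and 5.00 FPKM in si-METTL16 samples (log2 fold change 0.10, edgeR adjusted p = 0.488). KIF13B had 143, 124 and 112 counts in si-NC and 103, 65 and 89 counts in si-METTL16 samples, a log2 fold change of -0.52 (SE 0.20, edgeR adjusted p = 0.0778). Without si-METTL16 replicate 1 the adjusted p of KIF13B was 0.0445.

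Among the 13 other kinesins 9 were tested, and 1 was called (11.1%), beside 35.9% of all genes called in either direction. KIF24 (chromosome 9, 34252381 to 34311371), a kinesin-13 of the mother centriole that holds back the growth of a cilium, had 1.16, 1.12 and 1.39 FPKM in si-NC and 2.77, 3.00 and 3.03 FPKM in si-METTL16 samples. It rose by 1.28 on the log2 scale (SE 0.12, edgeR adjusted p = 0.000403), within the range of the mitotic kinesins. KIF24 had TTCGAA and 3 CCAAT matches in its promoter, while KIF5B, which also had CHR and CCAAT letters, was not called. In KIF24 the CCAAT letters began at -154, -100 and -47, upstream of its CHR letters. In KIF5B they began at -59, downstream of its CHR letters at -140. KIF2C, with the largest rise, had none of the letters searched. A link between these letters and the changes of kinesins was not tested. KIF2A, the kinesin-13 that acts at spindle poles and in resting cells, had 11.5, 11.5 and 11.4 FPKM in si-NC and 12.2, 12.3 and 12.3 FPKM in si-METTL16 samples (log2 fold change 0.12, SE 0.06, edgeR adjusted p = 0.137). In kinesin-13, then, KIF2C and KIF24 rose, KIF2A was not called and KIF2B was not tested. The remaining 7 that were tested, KIF7, KIF9, KIF21A, KIF21B, KIF26A, KIF26B and KIF27, had log2 fold changes from -0.52 (KIF21B) to 0.67 (KIF26A). KIF26A, at 43, 52 and 45 counts in si-NC and 59, 93 and 62 counts in si-METTL16 samples, did not overlap between groups and missed the threshold (edgeR adjusted p = 0.0883). KIF7, which tunes Hedgehog signalling at the tip of the cilium, had a log2 fold change of -0.25 (edgeR adjusted p = 0.213), and an adjusted p of 0.0457 without si-METTL16 replicate 3. Of the members that were not tested, KIF12 had 13, 4 and 12 counts in si-NC and 1, 2 and 0 in si-METTL16 samples, and KIF25 had 7, 3 and 3 against 2, 0 and 2. KIF19 had 2 counts and KIF6 had 1 over the 6 samples, so that neither was detectable at this depth.

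**Figure D4:**
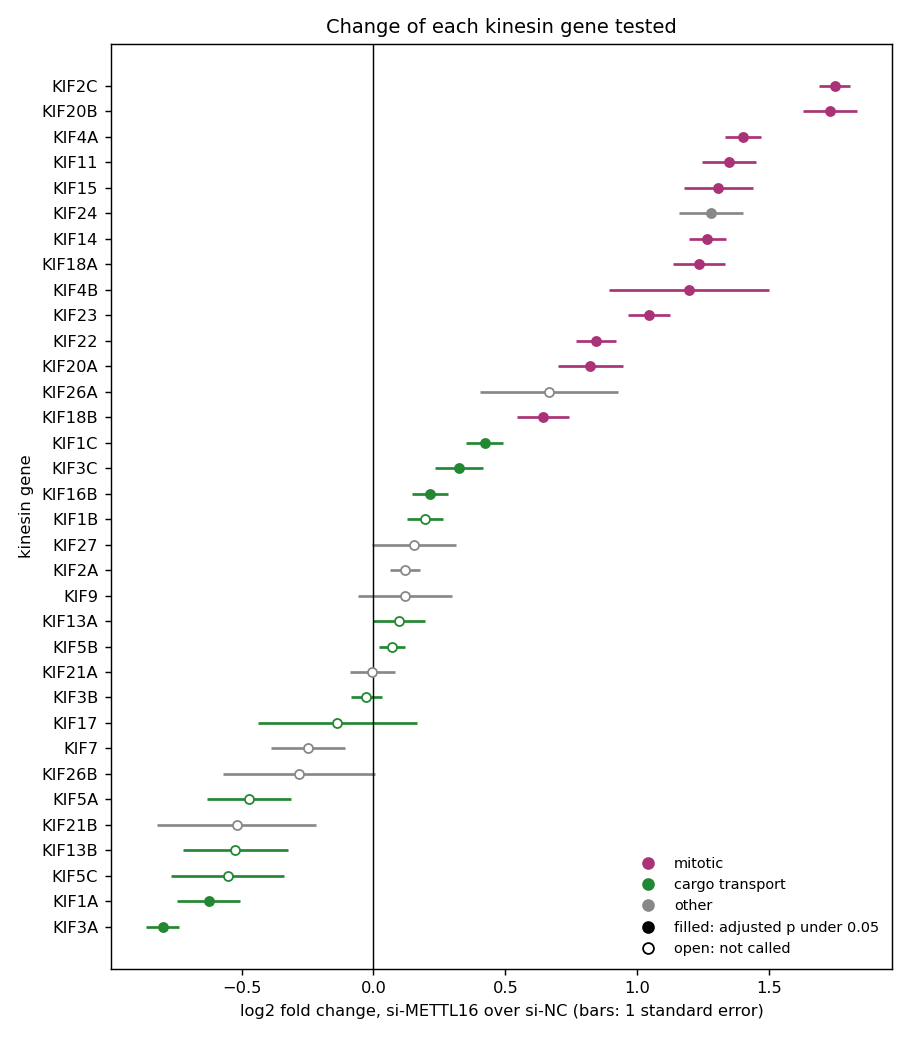
Log2 fold change of si-METTL16 over si-NC samples (x axis) for the 34 kinesins tested, with bars of 1 standard error; filled points have an adjusted p under 0.05 in edgeR's quasi-likelihood test. Mitotic kinesins run from 0.64 to 1.75, KIF24 lies among them at 1.28, and cargo transport kinesins run from -0.80 to 0.42.

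Over the whole family 34 of 39 genes were tested, and 16 were called higher (47.1%) and 2 lower (5.88%), beside 18.4% and 17.5% of all genes. Summed over all 39 genes the level was 271 ± 9.87 FPKM (SD, n = 3) in si-NC and 411 ± 10.2 FPKM (SD, n = 3) in si-METTL16 samples. The mitotic sum was 83.6, 98.3 and 93.7 FPKM in si-NC and 220.5, 236.6 and 228.9 FPKM in si-METTL16 samples. The cargo transport sum overlapped between groups, at 153, 156 and 159 FPKM in si-NC and 156, 159 and 156 FPKM in si-METTL16 samples. Mitotic kinesins thus made up 32.2 to 35.4% of kinesin FPKM in si-NC samples and 55.0 to 56.1% in si-METTL16 samples, and cargo transport kinesins 56.3 to 58.9% and 37.7 to 38.9%. These sums and shares depend on the gene lengths behind FPKM, which are not given and did not follow v44 exon lengths throughout. In si-NC samples KIF23 had more scaled counts than KIF22 (76.7 against 59.5 CPM) but a lower FPKM (5.98 against 7.50). Its merged v44 exons are the shorter (6576 against 7169 bases). The size of each class share is therefore uncertain. KIF5B remained the highest single kinesin by FPKM, but its share went from 22.9 to 24.5% down to 15.95 to 17.0% of the sum. KIF2C moved from rank 6 to rank 3 in mean FPKM, KIF20B from rank 14 to rank 7, and KIF3A from rank 8 to rank 17. Ranks between genes also depend on the gene lengths used for FPKM. KIF1A, at rank 12 by FPKM in si-NC samples, had 288 CPM there, below only KIF5B at 394 CPM.

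**Figure D5:**
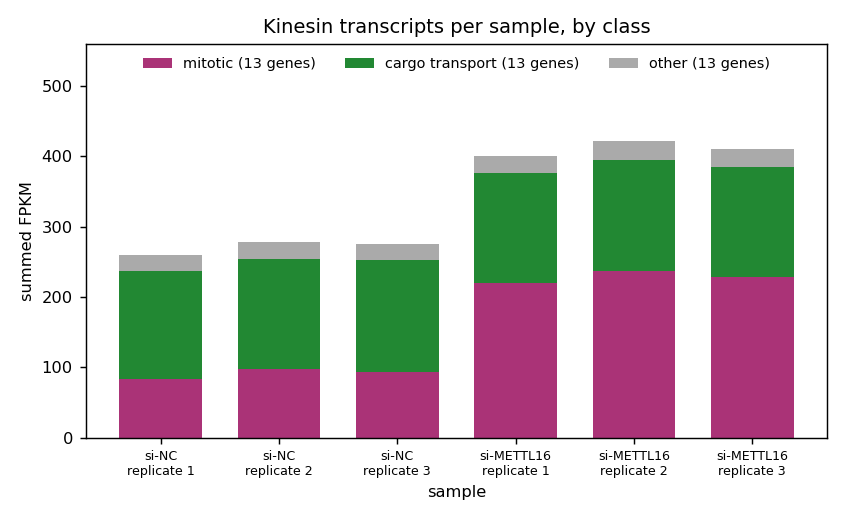
Summed FPKM (y axis) of mitotic, cargo transport and other kinesins, 13 genes each, stacked for each of the 6 samples. The mitotic part is 83.6 to 98.3 FPKM in si-NC and 220.5 to 236.6 FPKM in si-METTL16 samples, and the cargo transport part is 153 to 159 FPKM in all 6. Heights of the classes relative to each other depend on the gene lengths behind FPKM, which are not given.

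Of 4 kinesins whose symbols fall outside the name rule, 2 were called higher and 0 lower, beside 18.4% and 17.5% of all genes. CENPE, the kinetochore motor of kinesin-7, went from 4.10, 5.04 and 4.80 FPKM to 11.3, 10.7 and 10.7 FPKM, a log2 fold change of 1.25 (SE 0.09, edgeR adjusted p = 0.000162). KIFC1, the minus-end motor that focuses spindle poles, went from 8.89, 10.5 and 10.3 FPKM to 21.4, 22.1 and 23.7 FPKM, a log2 fold change of 1.20 (SE 0.09, edgeR adjusted p = 0.000165). KIFC2 and KIFC3, which are transport motors, had log2 fold changes of -0.30 and 0.24 and were not called.

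Of 15 partners of mitotic kinesins, all 15 were called higher, beside 18.4% of all genes, with a median log2 fold change of 1.07. The largest were CDCA8 (1.65, a subunit of the chromosomal passenger complex), AURKB (1.58, its kinase) and CIT (1.49, citron kinase, the partner of KIF14), each with an edgeR adjusted p of at most 0.000637. RACGAP1, the partner of KIF23 in centralspindlin, was at 14.6, 14.5 and 12.9 FPKM in si-NC and 18.0, 17.8 and 17.8 FPKM in si-METTL16 samples. It rose by 0.37 (SE 0.07, edgeR adjusted p = 0.00479), less than the 1.05 of KIF23, a difference that was not tested. PRC1, which crosslinks midzone microtubules and recruits KIF4A, had 6.72, 7.17 and 7.51 FPKM in si-NC and 9.63, 17.1 and 17.0 FPKM in si-METTL16 samples, with replicate 1 below the other si-METTL16 samples.

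Of 17 subunits and adaptors of transport kinesins tested, 4 were called higher (23.5%) and 3 lower (17.6%), near the 18.4% and 17.5% of all genes, with a median log2 fold change of -0.03. The largest rises were those of MAPK8IP2 (0.66), SPAG9 (0.44) and KLC2 (0.40), which link kinesin-1 to its loads, with edgeR adjusted p of 0.00436, 0.00159 and 0.0396. Those that fell included KIFAP3 (-0.79) and TRAK2 (-0.36, a mitochondrial adaptor, edgeR adjusted p = 0.00207). KIF1BP (now KIFBP), which binds several kinesins and stands on the lists of adaptors and of mitotic partners, rose by 0.33 (SE 0.07, edgeR adjusted p = 0.0118). Cytoplasmic dynein with dynactin is the motor that walks the other way. Of 18 of its subunits tested among 20, 3 were called higher (16.7%) and 5 lower (27.8%), beside 18.4% and 17.5% of all genes. Those higher were DYNLL2 by 1.01, ACTR1A by 0.40 and DYNLRB1 by 0.26 on the log2 scale, and those lower had the largest changes in DYNLT3 (-1.11), ACTR10 (-0.53) and DCTN6 (-0.46).

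Exons of several kinesins overlap genes on the other strand in GENCODE v44, and whether counting used strand is not given in the sources used here. KIF20A shares 132 exon bases with BRD8 and 74 with CDC23, KIF4A 77 with PDZD11, KIF24 144 with UBAP1, and KIF22 561 with a long noncoding RNA. The widest overlap in v44 is that of KIF2A with DIMT1, 2446 bases or 18.74% of its exon bases. The deposited row of KIF2A runs to 62537249, past its v44 end of 62391025, so its overlap as counted is not known. KIF7 shares 589 bases (10.82%) with TICRR. KIF9 shares 870 bases with KIF9-AS1, which had 46, 41 and 14 counts in si-NC and 58, 73 and 63 in si-METTL16 samples. If counting did not use strand, reads within these stretches cannot be assigned to either gene.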

How the data were processed

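The authors deposited, per the file headers, raw counts and FPKM values (counts divided by gene length and by the total of the sample) for 58735 genes in 6 samples. The gene lengths used for FPKM are not given and did not follow merged v44 exon lengths for every kinesin, so levels compared between genes are approximate. The submitters' processing notes name HISAT2 2.0.4, StringTie 1.3.0 and GRCh38, with no role stated; the counting program, annotation release and use of strand are not given in the sources used here. Counts were scaled by TMM, filtered with filterByExpr (minimum count 10, minimum total 15) and compared in R 4.3.3 by the quasi-likelihood test of edgeR 4.0.16 (functions glmQLFit, glmQLFTest). Adjustment was by Benjamini-Hochberg over all 15089 genes tested, with a threshold of 0.05. FPKM values were used for levels. Each standard error is the log2 fold change divided by the root of F. Depth, 3 samples per group and a common biological coefficient of variation of 16.5% set the precision. Limma 3.58.1, the package of the study, DESeq2 1.42.0, other filters, stricter thresholds, a replicate block and leaving out each sample were alternatives, and the script was tested on simulated data. Promoter letters were searched with Python 3.11.15, and transcripts were aligned with edlib.

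Samples were grouped by title. Members, lists and tests were chosen with earlier results of these data known. Values are given for every mitotic and cargo transport kinesin tested, for other kinesins that were called and, chosen after values were seen, for KIF2A, KIF26A, KIF7 and the members not tested. Of each partner list the text names the 3 largest called changes in each direction and partners of a kinesin already named, except 1 gene that is not reported here. The authors' MeRIP-seq, cell, mouse and patient experiments were not analysed here.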

Additional observations from a re-analysis of the deposited data

How the results depend on the processing

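Every mitotic call except that of KIF4B, and the calls of KIF24, KIF3A, KIF1A and KIF1C, held in each setting run at an adjusted p under 0.05 with no limit on the fold change. For single kinesins, 428 of the values under other settings kept direction and side of the threshold, 24 lost a call, 3 gained one and 5 changed sign. The number of cargo transport kinesins called higher went from 3 to 1 with no filter on low counts, to 1 with limma on either FPKM scale, to 1 at an adjusted p under 0.01 and to 0 where a log2 fold change of 1 or more in either direction was also required (the fold limit), and was 1 to 2 on leaving out single samples. KIF3C and KIF16B were the genes at the threshold. Those called lower, 2, became 0 at the fold limit and 2 to 3 on leaving out single samples. For other kinesins called lower, 0 became up to 1 on leaving out single samples. That gene was KIF12 without si-NC replicate 2 (log2 fold change -3.44, edgeR adjusted p = 0.0231) or without si-METTL16 replicate 2 (-3.97, 0.0429), where it passed the filter, and KIF7 without si-METTL16 replicate 3. KIF12 was not called with no filter (edgeR adjusted p = 0.0581).

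The mitotic median log2 fold change of 1.25 was 1.18 to 1.36 on leaving out single samples, 1.23 with no filter, 1.07 on log2(FPKM + 1) and 1.22 on log2(FPKM + 0.1). That of cargo transport kinesins, -0.03, was -0.054 to 0.0316 on leaving out single samples and turned to 0.054 on log2(FPKM + 1) and 0.0589 on log2(FPKM + 0.1), where 10 of the 13 passed the FPKM minimum of 1. On leaving out single samples the sign changed for KIF17 (-0.3186 to 0.0786), KIF21A (-0.0662 to 0.0736), KIF3B (-0.0584 to 0.0033) and KIF9 (-0.0016 to 0.2048). Over all genes, 2780 higher and 2638 lower became 1665 and 1370 at an adjusted p under 0.01, and 664 and 508 at the fold limit. Among subunits and adaptors, 4 higher became 2 at the stricter p and 0 at the fold limit, and 3 lower became 0. Mitotic partners called higher went from 15 to 9 at the fold limit, and dynein and dynactin genes from 3 higher and 5 lower to 1 and 1. Settings for partner lists were added after the data were seen.

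Any pairing of samples by replicate number was weak. Same-numbered samples correlated by 0.0253, 0.0371 and 0.0298 in their deviations, and other pairs by -0.0388 to 0.00827, so that each correlated best with its own number. With the replicate block 5013 genes were called, 4731 of them shared with the 5418 called without it, and among kinesins KIF16B lost its call (edgeR adjusted p = 0.0551).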
